A study of Mus musculus with 31 samples.

Results

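Untreated liver of NZW/LacJ mice was set against untreated liver of MA/MyJ mice, which uses 8 of the 31 arrays of the series. The members were taken from the strain and treatment labels: 4 NZW/LacJ and 4 MA/MyJ females, 8 to 10 weeks old at the start, that received sterile water by gavage once a day on 7 days and gave the left liver lobe 24 hours after the last dose. Both lines carry no engineered allele in the labels and no animal of either group had received a drug. The series gave other animals of these strains, and of SM/J and WSB/EiJ, 600 mg/kg of PF-04287881, a candidate antibiotic. MA/MyJ and NZW/LacJ were coded for vacuolation of Kupffer cells under the drug and NZW/LacJ alone for single cell necrosis, so the comparison asks which transcripts already separate the necrosis strain from the other vacuolation strain before dosing. Each strain is 1 inbred genotype. The p-values therefore measure the spread between animals of these strains, and a difference of genotype cannot be told apart from any difference in the origin or handling of the groups.

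Inbred mouse strains have each fixed 1 set of alleles, so livers of different strains differ in many transcripts without any treatment. Some of these differences come from variants in or near the gene itself, others from regulators that act on many genes at once, such as the nuclear receptors that control drug-metabolising enzymes. The arrays read each transcript through sets of short probes, and a strain variant under the probes can also lower a signal while the amount of RNA is equal. For this reason the other probe sets of each gene were examined beside the one used.

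Values are in log2 units, in which 1 unit is a 2-fold difference, and a difference is NZW/LacJ minus MA/MyJ ± 1 standard error with 4 animals in each group. The medians of the arrays of the series lay between 6.43 and 6.54. Over the 12283 genes tested, each of the 8 arrays correlated best, on average, with the other arrays of its own strain, vehicle and treated. These mean correlations were 0.982 to 0.987, against 0.964 to 0.972 for the next strain. The female transcript Xist lay between 12.61 and 12.86 in the 8 arrays, and the Y-linked genes Kdm5d, Uty and Eif2s3y lay between 3.51 and 5.23. As a check of the tissue, 18 of 20 listed hepatocyte markers could be tested and their mean level was 13.73 to 13.80 in NZW/LacJ and 13.72 to 13.89 in MA/MyJ.

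Of 12283 genes tested, 4862 passed an adjusted p under 0.05 in limma, which is 39.6% of the genes tested. NZW/LacJ was higher for 1911 of them (15.6%) and lower for 2951 (24%). Most of the differences were small, with a median size of 0.38 among the called genes, and 68.6% of the called genes differed by less than 0.5. The split between directions depended on the scaling: 39.3% of the calls were higher in NZW/LacJ as deposited, 55.3% after centring each array on its median and 47.7% after quantile normalisation of the 8 arrays alone. The median difference of all genes tested was -0.01. A difference of at least 1 was found for 397 genes (3.23%), 167 higher and 230 lower in NZW/LacJ, and 396 of these 397 were called in the same direction under both other scalings. A difference of at least 2 was found for 66 genes, 34 higher and 32 lower. For 4814 of the genes tested (39.2%) the 4 arrays of 1 strain all lay above the 4 of the other.

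The largest differences were close to a switch between a measured and a background signal, and several involved enzymes that conjugate or reduce small molecules. Mgst2, a membrane glutathione transferase that also conjugates leukotriene precursors, lay at 11.07, 11.17, 10.96 and 10.85 in NZW/LacJ and at 6.22, 6.38, 6.32 and 6.09 in MA/MyJ. All 4 NZW/LacJ animals stood far above all 4 MA/MyJ animals, and the means of 6.21 in SM/J and 6.10 in WSB/EiJ set NZW/LacJ apart. Mgst2 was 27.1-fold higher in NZW/LacJ (4.76 ± 0.09, adjusted p = 2.28e-09). Hsd3b5, a steroid-reducing enzyme better known from male liver, lay at 10.11, 10.15, 10.35 and 10.36 in NZW/LacJ females and between 5.17 and 6.33 in MA/MyJ females. It was also low in SM/J (5.05) and WSB/EiJ (4.89), and the difference was 4.41 ± 0.22. Itih5, a hyaluronan-binding heavy chain of the inter-alpha-trypsin inhibitor family, was higher by 4.70 ± 0.16, and Serpina12, the serine protease inhibitor also called vaspin, by 4.01 ± 0.15.

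In the other direction, Cox6b2, a subunit of cytochrome oxidase best known from testis, lay at 6.06, 6.41, 6.31 and 6.11 in NZW/LacJ and at 11.36, 11.22, 11.31 and 11.37 in MA/MyJ. Here MA/MyJ was the strain apart, since SM/J lay at 6.26 and WSB/EiJ at 5.83. Cox6b2 was 34.2-fold lower in NZW/LacJ (-5.09 ± 0.09, adjusted p = 1.9e-09). Abhd1, a hydrolase of the alpha/beta fold family, had the opposite kind of pattern: it lay at 6.83, 7.03, 6.98 and 6.91 in NZW/LacJ, between 10.63 and 11.30 in MA/MyJ, and at 10.67 in SM/J and 10.63 in WSB/EiJ, so NZW/LacJ alone was low. Gdpd3, a lysophospholipase D, was lower by 3.98 on the log2 scale in NZW/LacJ, with the WSB/EiJ mean of 6.49 close to NZW/LacJ and the SM/J mean of 10.14 close to MA/MyJ.

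**Figure D1:**
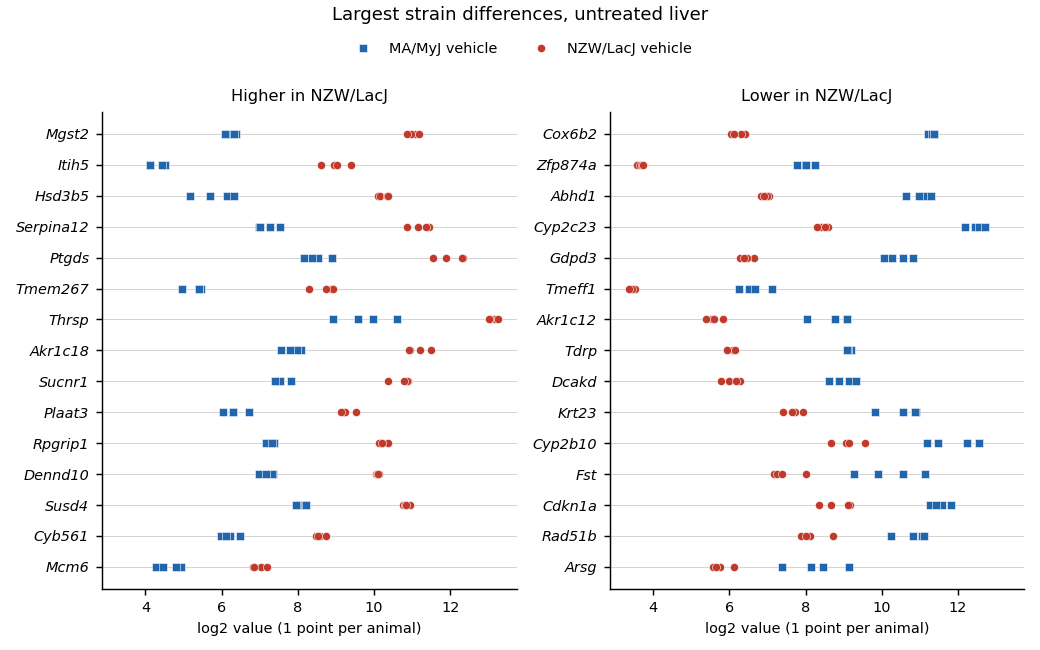
Log2 values (horizontal axis) of the 15 largest differences in each direction that were also found in treated animals and in every other probe set of the gene; red circles are the 4 NZW/LacJ and blue squares the 4 MA/MyJ vehicle animals. For each of the 30 genes the animals of 1 strain all lie on 1 side of the animals of the other, and for Mgst2 and Cox6b2 the gap is over 4 units. The genes were picked for large differences, and 39.2% of all genes tested were also without overlap.

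Among the 30 genes plotted, NZW/LacJ lay beyond the 3 other strains in every array for 21, MA/MyJ for 4 and neither for 5. Over the 397 genes with a difference of at least 1, NZW/LacJ lay apart for 183 (82 of them higher), MA/MyJ for 75 and neither for 139. Both sets of genes were picked for a large difference between NZW/LacJ and MA/MyJ. The same counts over all genes tested were not made, so these have no background to be read against. Examples in which MA/MyJ was the unusual strain were Dennd10, a regulator of vesicle traffic, which lay between 6.99 and 7.34 in MA/MyJ against means of 9.78 in SM/J and 9.96 in WSB/EiJ, and Zfp874a, a zinc finger gene. Zfp874a lay between 3.59 and 3.74 in NZW/LacJ and between 7.79 and 8.24 in MA/MyJ, with means of 3.54 in SM/J and 3.39 in WSB/EiJ. Of the 230 large differences with NZW/LacJ lower, 35 had all NZW/LacJ arrays under 6.49, the median of all probe-set values that served as the filter, and 31 of the 167 others had all MA/MyJ arrays under it. For such genes the size of the difference is limited by the background of the array.

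Several families of drug-metabolising enzymes had more members higher than lower in NZW/LacJ. Cytochrome P450 enzymes oxidise drugs and steroids, and glucuronosyltransferases, sulfotransferases and glutathione transferases attach groups that make the products soluble. Of 34 P450 genes tested, 16 were higher and 3 lower in NZW/LacJ, with a median difference of 0.19 against -0.01 over all genes. Of 23 glucuronosyltransferase and sulfotransferase genes, 12 were higher and 1 lower (median 0.24), and of 22 glutathione transferase genes 11 were higher and 4 lower (median 0.27). These counts stand against 15.6% higher and 24% lower among all genes, and they kept the same direction under both other scalings. Carboxylesterases and epoxide hydrolases, which split esters and epoxides, showed no such lean, with 3 higher and 4 lower of 17, or 7 and 4 after centring.

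The 3 P450 genes that were lower included the largest differences of the family. Cyp2c23, an arachidonic acid epoxygenase, lay at 8.58, 8.40, 8.29 and 8.51 in NZW/LacJ and at 12.44, 12.56, 12.70 and 12.19 in MA/MyJ. It was 16.3-fold lower in NZW/LacJ (-4.03 ± 0.11, adjusted p = 2.35e-08), and the SM/J and WSB/EiJ means of 12.42 and 11.18 placed NZW/LacJ apart. Cyp2b10, the classical target of the drug-sensing receptor CAR, lay at 9.05, 9.56, 8.66 and 9.13 in NZW/LacJ and varied from 11.18 to 12.56 among MA/MyJ animals, a difference of -2.76 ± 0.30. In the treated animals the Cyp2b10 difference was -4.74 ± 0.39. Its relative Cyp2b13, usually a female-biased enzyme, went the other way: it lay at 13.01, 12.96, 13.07 and 12.91 in NZW/LacJ and between 10.38 and 11.89 in MA/MyJ (1.65 ± 0.29). Cyp3a44 was higher by 2.29 ± 0.24 and Cyp2d9, a steroid hydroxylase, by 1.78 ± 0.22.

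In the RefSeq gene order, Cyp2c23 lay in a run of 6 tested genes that were all lower in NZW/LacJ, Dnmbp, Cpn1, Cyp2c23, Erlin1, Cwf19l1 and Bloc1s2, of which Cyp2c23 alone differed by at least 1. In a separate run, Cyp2c39, Cyp2c38, Cyp2c68, Cyp2c37, Cyp2c54, Cyp2c50, Cyp2c70 and the next gene, Pdlim1, formed a run of 8 tested genes that were all higher in NZW/LacJ, 2 of them by at least 1. The Cyp2c genes are close copies of each other, so 1 transcript may be read by the probes of several, and their differences are not independent. Whether cross-reading took part was not tested. Over the genome, runs of 3 or more called neighbours numbered 471 and held 1750 of the 12262 tested genes with a place. Runs all lower in NZW/LacJ numbered 129, the longest of 6 genes, and runs all higher 56, the longest of 8. Such runs were thus common, and those named in this report were picked after their values were seen.

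Among conjugating enzymes, Ugt2b37, a glucuronosyltransferase, lay at 9.82, 8.43, 9.07 and 8.41 in NZW/LacJ and between 5.73 and 6.36 in MA/MyJ, a 7.38-fold difference (2.88 ± 0.30, adjusted p = 0.000114). The difference in treated animals was 1.34 and did not pass (adjusted p = 0.12). Sult2a2, a hydroxysteroid sulfotransferase, was uniform in NZW/LacJ, at 13.63 to 13.78, and ranged from 11.02 to 13 in MA/MyJ (1.73 ± 0.36). Gstp3 was higher by 2.15 ± 0.11 and Gstm5 by 1.36 ± 0.19. Mgst3 was lower by 1.71 on the log2 scale in its brightest probe set, but its other probe set differed by 0.11 (adjusted p = 0.335), so the sign rests on 1 probe set.

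The aldo-keto reductases Akr1c18 and Akr1c12 are neighbouring genes and differed in opposite directions. Akr1c18, a hydroxysteroid dehydrogenase that inactivates progesterone, lay at 11.21, 10.93, 11.48 and 10.92 in NZW/LacJ and at 7.56, 8.09, 7.98 and 7.80 in MA/MyJ (3.28 ± 0.15). Akr1c12 lay between 5.38 and 5.84 in NZW/LacJ and between 8.04 and 9.10 in MA/MyJ (-3.16 ± 0.22). In both cases SM/J and WSB/EiJ resembled MA/MyJ, with means of 8.20 and 7.77 for Akr1c18 and of 8.85 and 8.41 for Akr1c12. The longer run of neighbours Net1, Akr1c14, Akr1c18, Akr1c13, Akr1c19 and Akr1c12 held 4 genes higher and 2 lower in NZW/LacJ. Over the list of sex-biased steroid and growth hormone targets, 16 of 45 were higher and 6 lower (48.9% called, against 39.6% of all genes). Of the 22 called, 16 differed by at least 1, with Hsd3b5 and Akr1c18 in front.

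Transporters that move drugs and bile acids across the hepatocyte membrane were split, with 8 higher and 12 lower of 30 (8 and 9 after centring, and 5 higher without NZW/LacJ animal 3). As deposited, 66.7% of the list was called, against 39.6% of all genes. Abcc2, the pump that exports conjugates into bile, lay at 10.97, 11, 10.88 and 11.09 in NZW/LacJ and between 9.44 and 9.92 in MA/MyJ (1.35 ± 0.10, adjusted p = 1.49e-05). Slc22a27 was higher by 2.33 ± 0.26 and Slc22a7, an organic anion transporter, by 1.41 ± 0.30. Slc22a5, the carnitine transporter, was lower at -1.43 ± 0.14. Slc22a27 belongs to the run of neighbours Atl3, Plaat3, Slc22a26 and Slc22a27, all higher by at least 1. The 1 other run of genes called with differences of at least 1, Alkbh2, Ung and Acacb, was lower throughout, and Acacb missed the threshold with all 31 arrays (adjusted p = 0.0574).

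In bile acid metabolism 5 of 19 genes were higher and 4 lower, so that 47.4% of the list was called against 39.6% of all genes. Cyp7a1, the rate-limiting enzyme of bile acid synthesis, lay at 12.75, 12.85, 12.88 and 13.04 in NZW/LacJ and ranged from 10.45 to 12.23 in MA/MyJ. The groups did not overlap, and Cyp7a1 was 3.09-fold higher in NZW/LacJ (1.63 ± 0.34, adjusted p = 0.0049). It missed the threshold when all 31 arrays set the spread (adjusted p = 0.0516), and in the treated animals the difference was -0.31 (adjusted p = 0.33). Akr1d1, which reduces the bile acid precursor, and Cyp7b1 of the alternative pathway were higher by 1.16 ± 0.21 and 1.07 ± 0.13. Scarb1, the hepatic receptor for high-density lipoprotein, was higher by 1.55 ± 0.15, and MA/MyJ was the low strain, since SM/J lay at 12.73 and WSB/EiJ at 12.53, near the 12.56 to 12.75 of NZW/LacJ.

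The lysosome degrades phospholipids, glycolipids and proteins at an acid pH kept by the vacuolar proton ATPase, and accumulation of phospholipid in lysosomes appears under the microscope as vacuoles. In the untreated livers 10 of 64 lysosomal genes were higher and 23 lower in NZW/LacJ, with a median of -0.04. After centring the counts were 13 and 15 and the median was 0.03, so the lean of the list depended on the scaling. Of 18 vacuolar ATPase subunits, 1 was higher and 9 lower (median -0.23), and 1 and 8 after centring (median -0.16). As deposited, 51.6% of the lysosomal list and 55.6% of the ATPase list were called, against 39.6% of all genes.

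Single lysosomal enzymes differed clearly. Hexa, the alpha subunit of beta-hexosaminidase, lay at 10.36, 10.39, 10.28 and 10.18 in NZW/LacJ and at 9.02, 9.10, 8.94 and 9.07 in MA/MyJ. With means of 10.75 in SM/J and 10.59 in WSB/EiJ, MA/MyJ was the strain with low Hexa, and the difference was 1.27 ± 0.07 (adjusted p = 1.8e-06). It was 1.04 ± 0.15 in the treated animals. The sulfatases went in different directions: Arsa, which degrades sulfatide, was lower at -1.23 ± 0.10, Arsg, a sulfatase of heparan sulfate breakdown, was lower at -2.50 ± 0.31, and Arsk was higher at 2.12 ± 0.18 in its brightest probe set. The other probe set of Arsk differed by 0.15 (adjusted p = 0.199). Glb1, the lysosomal beta-galactosidase, lay between 7.33 and 7.67 in NZW/LacJ and between 8.32 and 8.54 in MA/MyJ (-0.96 ± 0.09). Dnase2a, which digests DNA in phagolysosomes, was lower at -1.19 ± 0.16, but it missed the threshold with all 31 arrays (adjusted p = 0.0714) and differed by -0.09 in the treated animals.

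Atp6v0d2, a membrane-sector subunit found in macrophages, osteoclasts and kidney, was the 1 ATPase gene that was higher. It lay at 9.65, 9.62, 9.73 and 9.44 in NZW/LacJ and between 8.17 and 8.64 in MA/MyJ (1.27 ± 0.11, adjusted p = 3.22e-05), and its second probe set differed by 3.58. The broadly expressed subunit Atp6v0b lay at 10.44, 10.32, 10.50 and 10.52 in NZW/LacJ and between 11.27 and 11.53 in MA/MyJ (-0.95 ± 0.07). Atp6v1g1 and Atp6v0e were lower at -0.58 ± 0.06 and -0.54 ± 0.08. In the treated animals Atp6v0b differed by -0.41 (adjusted p = 0.064) and Atp6v1g1 by -0.12 (adjusted p = 0.46).

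Of 41 genes of phospholipid breakdown and remodelling, 7 were higher and 16 lower (median -0.06), against 13 and 14 after centring (median 0.01). Without NZW/LacJ animal 3 the higher members numbered 4. With no animal left out, 56.1% of the list was called, against 39.6% of all genes. Plaat3, an acyltransferase with phospholipase A activity that acts on organelle membranes, lay at 9.20, 9.53, 9.23 and 9.14 in NZW/LacJ and at 6.03, 6.73, 6.29 and 6.29 in MA/MyJ. It was 7.68-fold higher in NZW/LacJ (2.94 ± 0.14, adjusted p = 9.15e-07), with 9 in SM/J and 6.22 in WSB/EiJ, and by 2.97 ± 0.13 in treated animals. Pla2g6, a calcium-independent phospholipase, was lower at -1.37 ± 0.16 in its brightest probe set and at -1.35 in a second, while another differed by 0.36 in the opposite direction. Chka, the choline kinase that starts phosphatidylcholine synthesis, was lower at -1.30 ± 0.22. Autophagy genes, which feed the lysosome, gave 8 higher and 12 lower of 48, and 13 and 7 after centring. As deposited, 41.7% of that list was called, against 39.6% of all genes.

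Kupffer cells are the resident macrophages of the liver sinusoids, and their markers were higher in NZW/LacJ before any drug. Of 19 markers tested, 12 were higher and 1, Nr1h3, was lower (2 without MA/MyJ animal 1), with a median of 0.48. The median was 0.55 and 0.56 under the other scalings. As deposited, 68.4% of the list was called, against 39.6% of all genes, of which 15.6% were higher and 24% lower. The mean level of the 19 markers was 9.43, 9.59, 9.27 and 9.23 in NZW/LacJ and 8.92, 8.90, 9.04 and 8.81 in MA/MyJ, so the groups did not overlap. In whole liver, more Kupffer cells and more RNA per Kupffer cell cannot be told apart.

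Csf1r, the receptor for the macrophage growth factor, lay at 11.32, 11.49, 11.13 and 11.01 in NZW/LacJ and at 10.18, 10.19, 10.51 and 10.17 in MA/MyJ. It was 1.97-fold higher in NZW/LacJ (0.98 ± 0.12, adjusted p = 0.00024), and SM/J lay at 11.07 and WSB/EiJ at 9.51. Folr2, a folate receptor of resident macrophages, was higher by 1.09 ± 0.12, and Vsig4, a complement receptor of Kupffer cells, by 0.81 ± 0.14. Clec4f and Timd4, defining surface proteins of resident Kupffer cells that were chosen after their values were seen, were higher by 0.60 ± 0.13 and 0.73 ± 0.16. The C1q genes C1qa and C1qb, made mainly by macrophages, were each higher by 0.80, with adjusted p of 0.0024 and 0.00223; C1qa missed the threshold with all 31 arrays (adjusted p = 0.0516).

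Between treated animals of these strains, where limma called 21.9% of all genes, the 12 Kupffer markers were again higher in the mean in NZW/LacJ, but the adjusted p ran from 0.0736 for Folr2 to 0.923 for C1qb. The mean level of the list was 10.12, 9.66, 9.10 and 10.56 in treated NZW/LacJ and 9.33, 9.43, 9.95 and 9.79 in treated MA/MyJ. The treated NZW/LacJ animals thus spread over more than 1 unit and overlapped the treated MA/MyJ animals, and Csf1r differed by 0.25 ± 0.31 there. Whether the vehicle and treated differences differ from each other was not tested. With all 31 arrays in the fit, 4 Kupffer markers were called higher and 1 lower.

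Genes of antigen presentation by MHC class II, found mainly on macrophages, dendritic cells and B cells, were also higher: 8 of 10 tested and none lower, with a median of 0.52. The count was 5 without NZW/LacJ animal 2, 5 without MA/MyJ animal 4 and 2 with all 31 arrays, and 1 of the 8 passed with the same sign in treated animals. In the main fit 80% of the list was called, against 39.6% of all genes. H2-Ea lay between 10.15 and 10.58 in NZW/LacJ and between 9.24 and 9.95 in MA/MyJ (0.86 ± 0.16), and H2-Eb1 was higher by 0.84 ± 0.13, though H2-Eb1 missed the threshold with all 31 arrays (adjusted p = 0.0967). The strains of the series can carry different alleles at these loci, and the 2 probe sets of H2-Ea gave different sizes, 0.86 and 3.59. The class I gene H2-K1 lay at 12.76, 12.77, 12.65 and 12.69 in NZW/LacJ and between 10.42 and 11.23 in MA/MyJ (1.93 ± 0.17). Its other probe sets differed by 0.23 and 0.52, so the size of the H2-K1 difference depended on the probe set.

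None of 6 neutrophil markers was called by limma, and none had an unadjusted p under 0.05 (lowest 0.0897, for Elane), with S100a9 at -0.31 ± 0.25 and Lcn2 at 0.27 ± 0.51, and Lcn2 ranged from 9.78 to 12.39 among MA/MyJ animals. Among monocyte and lipid-associated macrophage markers 3 of 9 were higher and 1 lower (44.4% called, against 39.6% of all genes). Cd68, a lysosomal glycoprotein of macrophages, lay between 7.12 and 7.69 in NZW/LacJ and between 6.46 and 6.72 in MA/MyJ (0.74 ± 0.12), but not past the threshold with all 31 arrays (adjusted p = 0.189). Red blood cell precursor markers were higher for 4 of 7 and lower for none (57.1% called, median 0.52), led by the erythroid factor Klf1 at 0.98 ± 0.12. Hepatocyte markers gave 3 higher and 1 lower of 18 (22.2% called), with a median of 0.01. The higher count was 1 without NZW/LacJ animal 2 and the lower count 3 without MA/MyJ animal 1.

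Interferon response genes gave 7 higher and 14 lower of 51, so that 41.2% of the list was called against 39.6% of all genes. Without NZW/LacJ animal 1, 3 or 4 the higher count was 4. Trim34a, an interferon-inducible TRIM protein, was lower at -1.61 ± 0.23. Trim30d was lower at -1.86 ± 0.11 in its brightest probe set and at -0.41 (adjusted p = 0.102) in the next brightest. Of 22 genes of necroptosis, pyroptosis and ferroptosis, 2 were higher and 7 lower in NZW/LacJ, so that 40.9% of the list was called against 39.6% of all genes. The lower count was 5 after centring and 4 with all 31 arrays, and the higher count ran from 1 to 3 without NZW/LacJ animal 4 or MA/MyJ animal 4. The inflammasome sensor Nlrp6 lay between 8.09 and 8.27 in NZW/LacJ and between 9.04 and 9.28 in MA/MyJ (-1.02 ± 0.07), and the pore-forming Gsdme was lower at -0.65 ± 0.12. In treated animals Nlrp6 differed by 0.03 and Gsdme by -0.78.

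Genes that the liver uses to burn fat were lower in NZW/LacJ. In fasting, the nuclear receptor PPAR alpha turns on fatty acid oxidation, pyruvate dehydrogenase kinase blocks the entry of glucose carbon into mitochondria, and insulin falls. Among the 54 tested members of the fat oxidation list, which includes other PPAR alpha targets, 6 were higher and 27 lower, with a median of -0.27 (8 and 21 after centring, median -0.19). As deposited, 61.1% of the list was called, against 39.6% of all genes. Pdk4, the fasting-induced pyruvate dehydrogenase kinase, lay at 6.83, 7.36, 6.86 and 7.13 in NZW/LacJ and at 9.98, 9.95, 9.87 and 10.90 in MA/MyJ. It was 8.78-fold lower in NZW/LacJ (-3.13 ± 0.22, adjusted p = 1.16e-05), and SM/J at 8.89 and WSB/EiJ at 9.36 were both above NZW/LacJ.

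The acyl-CoA thioesterases Acot2 and Acot1, of mitochondria and cytosol, showed the same direction. Acot2 lay at 10.94, 11.50, 11.23 and 11.16 in NZW/LacJ and between 12.76 and 13.49 in MA/MyJ (-2.04 ± 0.17), and Acot1 was lower at -1.54 ± 0.17. In treated animals the differences were -2.94 ± 0.39 and -2.92 ± 0.46. Vnn1, the pantetheinase induced by PPAR alpha, was lower at -1.73 ± 0.12. Cyp4a31, a fatty acid hydroxylase, ran against the list: it lay between 12.10 and 12.33 in NZW/LacJ and between 10.28 and 10.63 in MA/MyJ (1.73 ± 0.09).

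Igfbp1, a secreted binding protein that insulin represses, lay at 10.07, 11.43, 11.25 and 10.90 in NZW/LacJ and at 13.22, 13.36, 13.49 and 13.68 in MA/MyJ. The difference of -2.53 ± 0.26 was 5.76-fold, and in the treated animals it was -1.21 and missed the threshold (adjusted p = 0.0599). Thrsp, a nuclear protein of fat synthesis that rises with feeding, lay at 13.13, 13.03, 13.24 and 13.02 in NZW/LacJ and ranged from 8.91 to 10.60 in MA/MyJ (3.34 ± 0.29). Fasn, the fatty acid synthase, was higher by 0.99 ± 0.14. Over the whole list of fatty acid synthesis, however, 5 of 26 genes were higher and 6 lower (42.3% called, against 39.6% of all genes). The glucose-6-phosphatase gene G6pc was lower at -0.86 ± 0.15, and missed the threshold with all 31 arrays (adjusted p = 0.0527).

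Genes of cholesterol synthesis and uptake were higher in NZW/LacJ: 13 of 23 against 3 lower, with a median of 0.38, and 14 against none lower after centring. These genes respond to the membrane-bound factor SREBP2, which binds sterol regulatory elements when cellular cholesterol is low. As deposited, 69.6% of the list was called, against 39.6% of all genes. Msmo1, a sterol demethylating oxidase, lay at 8.96, 9.42, 8.63 and 9.29 in NZW/LacJ and at 7.63, 7.58, 7.75 and 7.60 in MA/MyJ (1.43 ± 0.15, adjusted p = 0.000122). Nsdhl, Cyp51 and Dhcr7, of the same pathway, were higher by 1.36 ± 0.13, 1.25 ± 0.12 and 1.22 ± 0.12.

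In the treated animals 4 of the called sterol genes passed with the same sign. Treated NZW/LacJ animal 1 stood out there, with a mean level of 11.35 over the 23 genes against 9.71 to 10.25 in the other treated NZW/LacJ animals and 9.87 to 10.04 in treated MA/MyJ. Cyp51 differed by 0.67 ± 0.63 in those animals. When all 31 arrays set the spread, 5 sterol genes were called higher and none lower, and Cyp51 missed the threshold (adjusted p = 0.116).

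Promoter sequences from RefSeq (GRCm38.p6) were searched on both strands for the sterol element TCACNCCAC and for the E-box CACGTG, the site of the clock factors, in the 250 bases before each start. Windows were found for 19 of the 23 sterol genes and 19 of the 22 clock genes tested. The sterol element was in 1 of the 19, Hmgcs1, against 1.05% of all 32851 windows, and the E-box in 4 of the 19, Ciart, Cry1, Per1 and Tef, against 6.02%. The counts are of genes with a match in any of their windows and the percentages of single windows, so they are not on the same footing. The windows of the called genes Hmgcs1 (chr13:119690101-119690350, plus strand), Tef (chr15:81802423-81802672, plus strand) and Per1 (chr11:69098699-69098948, plus strand) are shown, with the motif in capitals, because each is a called gene that holds the motif of its group. A match describes these letters alone.
Hmgcs1: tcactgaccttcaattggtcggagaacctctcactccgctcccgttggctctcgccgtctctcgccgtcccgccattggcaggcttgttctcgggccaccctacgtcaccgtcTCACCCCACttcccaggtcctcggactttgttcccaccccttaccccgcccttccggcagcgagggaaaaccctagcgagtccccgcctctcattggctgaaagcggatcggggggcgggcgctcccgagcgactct
Tef: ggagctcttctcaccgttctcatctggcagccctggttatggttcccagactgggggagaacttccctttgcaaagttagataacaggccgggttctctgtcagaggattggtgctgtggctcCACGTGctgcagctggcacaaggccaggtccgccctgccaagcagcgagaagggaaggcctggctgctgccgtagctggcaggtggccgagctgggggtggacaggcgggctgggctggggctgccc
Per1: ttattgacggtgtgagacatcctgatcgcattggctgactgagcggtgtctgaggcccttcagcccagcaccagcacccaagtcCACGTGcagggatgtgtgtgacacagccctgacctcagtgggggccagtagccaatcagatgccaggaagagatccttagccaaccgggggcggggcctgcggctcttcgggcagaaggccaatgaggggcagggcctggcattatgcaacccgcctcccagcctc

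Hmgcs1, the synthase at the entry to cholesterol synthesis, was higher by 0.50 ± 0.10 (adjusted p = 0.00386). Tef, a clock-driven transcription factor, lay at 11.61, 11.55, 11.60 and 11.67 in NZW/LacJ and ranged from 10.38 to 11.39 in MA/MyJ (0.67 ± 0.19, adjusted p = 0.0202). Per1, a clock repressor, went the other way: it lay at 7.17, 8.00, 6.83 and 6.98 in NZW/LacJ and at 7.28, 8.94, 9.12 and 9.03 in MA/MyJ, with the groups overlapping (-1.35 ± 0.41, adjusted p = 0.0264). Ciart and Cry1 were not called. These genes were named after their sequences and values were seen.

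The circadian clock is a feedback loop in which Arntl and its partner drive the repressors of the Per, Cry and Nr1d families and the output factor Dbp, so levels depend on the hour. Of 22 clock genes 7 were higher and 7 lower (63.6% called, against 39.6% of all genes). The lower count was 4 without NZW/LacJ animal 1 or 3, or MA/MyJ animal 2 or 3. Dbp lay at 10.05, 9.92, 10.00 and 10.41 in NZW/LacJ and at 7.81, 8.09, 8.30 and 7.31 in MA/MyJ, a 4.66-fold difference (2.22 ± 0.20, adjusted p = 4.31e-05). The repressor Nr1d1 lay at 9.24, 9.03, 9.18 and 9.35 in NZW/LacJ and between 6.66 and 7.27 in MA/MyJ (2.13 ± 0.13). Nfil3, which opposes Dbp at the same sites, was lower at -1.73 ± 0.12.

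Arntl itself, chosen after its values were seen, was lower at -0.66 ± 0.09, and a second, dimmer probe set differed by 0.24 in the opposite direction. In treated animals Dbp differed by 4.08 ± 0.28, Nfil3 by -1.45 ± 0.16 and Arntl by -3.34 ± 0.15. The SM/J means, at 10.55 for Dbp and 9.37 for Nr1d1, were near NZW/LacJ, and the WSB/EiJ means, at 6.79 and 7.29, near MA/MyJ. The hour of collection and feeding state of each group are not given in the sources used here. Their part in the clock and fuel genes was not tested.

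**Figure D2:**
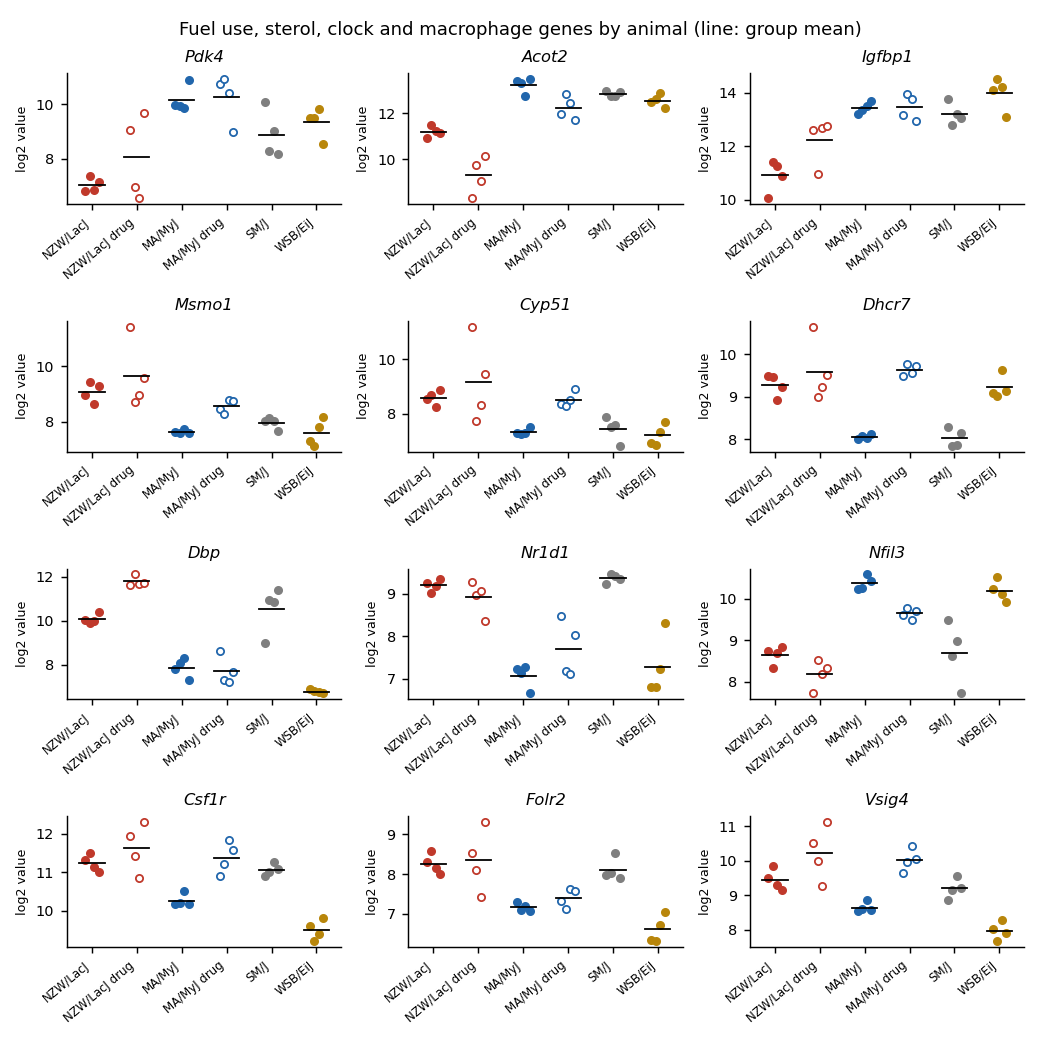
Log2 values of 12 genes in each animal, by strain and treatment: filled points are vehicle animals of the 4 strains, open points NZW/LacJ and MA/MyJ animals given PF-04287881 (drug), and lines are group means. Pdk4, Acot2 and Igfbp1 are lower, and the sterol and macrophage genes, Dbp and Nr1d1 higher, in vehicle NZW/LacJ than in vehicle MA/MyJ, and Nfil3 is lower; the Csf1r and Vsig4 values of the treated animals overlap between the strains.

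Stress and growth control genes were lower in NZW/LacJ for several well known members. Cdkn1a, the cell cycle inhibitor p21 induced by p53, lay at 8.66, 9.15, 9.12 and 8.36 in NZW/LacJ and at 11.27, 11.59, 11.41 and 11.81 in MA/MyJ. It was 6.49-fold lower in NZW/LacJ (-2.70 ± 0.18, adjusted p = 9.16e-06), and the difference in treated animals was -3.48. The SM/J mean of 9.54 was close to NZW/LacJ and the WSB/EiJ mean of 12.23 above MA/MyJ. Bcl2l11, the pro-apoptotic protein BIM, was lower at -1.43 ± 0.11, and all 4 other probe sets of the gene were lower too. Gadd45b, a growth arrest gene, was lower at -1.75 ± 0.31, with MA/MyJ animal 4 at 10.79 above the 9.25 to 9.46 of the other animals. Over the 36 genes of this list 6 were higher and 12 lower, or 8 and 10 after centring. As deposited, 50% of the list was called, against 39.6% of all genes.

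Of 27 heat shock proteins and chaperones, 1 was higher and 11 lower (median -0.15). The 1 higher became 3 without MA/MyJ animal 4. With no animal left out, 44.4% of the list was called, against 39.6% of all genes. Hspb1, the small heat shock protein HSP27, lay between 7.39 and 7.64 in NZW/LacJ and ranged from 8.80 to 10.61 in MA/MyJ (-2.28 ± 0.36). Hsph1 and Hspa4l, co-chaperones of the HSP70 system, were lower at -1.42 ± 0.27 and -1.40 ± 0.11. Genes of the unfolded protein response gave 11 higher and 4 lower of 40, and 18 higher without MA/MyJ animal 4. With all 8 arrays 37.5% of that list was called, against 39.6% of all genes, and the median was 0.09. Dnajb9, a chaperone of the endoplasmic reticulum, was higher by 0.92 ± 0.10, and the sensor Atf6 was lower at -0.89 ± 0.08.

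Proteasome genes were lower for 16 and higher for 2 of 40, but by little (median -0.13); the lower count was 10 after centring, 10 without NZW/LacJ animal 1 and 10 without NZW/LacJ animal 4. Mitochondrial ribosome genes were lower for 30 and higher for 4 of 77 (median -0.11), with 16 lower after centring and 19 without NZW/LacJ animal 2. Mrps12 had the largest difference of that list, at -1.03 ± 0.08. Respiratory chain subunits, at 4 higher and 9 lower of 71, and ribosomal proteins, at 2 higher and 3 lower of 34, had few called members. Of the proteasome list 45% was called and of the mitochondrial ribosome list 44.2%, near the 39.6% of all genes. For the respiratory chain and ribosomal proteins the shares were 18.3% and 14.7%. After centring, 2214 of all 12283 genes tested were lower.

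Of 34 genes of the NRF2 antioxidant response 8 were higher and 10 lower (52.9% called, against 39.6% of all genes). Cbr1, a carbonyl reductase, lay at 9.65, 10.13, 10.27 and 10.00 in NZW/LacJ and between 11.33 and 11.72 in MA/MyJ (-1.48 ± 0.13). In the cell cycle list 3 were higher and 10 lower of 28 (46.4% called). Mcm6, a subunit of the replication helicase, was higher by 2.35 ± 0.15, and Rrm2, which makes deoxynucleotides, lay between 9.56 and 10.18 in NZW/LacJ and between 7.26 and 7.89 in MA/MyJ (2.20 ± 0.17), while the helicase subunit Mcm2 was lower at -1.17 ± 0.20.

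Amino acid metabolism leaned towards NZW/LacJ, with 22 higher and 7 lower of 52 genes of the urea cycle and amino acid catabolism (median 0.17). The share called was 55.8%, against 39.6% of all genes. Bckdhb, of branched-chain amino acid breakdown, lay between 12.26 and 12.32 in NZW/LacJ and between 11.05 and 11.36 in MA/MyJ (1.11 ± 0.08), with MA/MyJ the strain apart in the mean, since SM/J lay at 12.22 and WSB/EiJ at 12.02. Csad, which makes taurine, was lower at -1.86 ± 0.23. Among secreted proteins, 15 of 54 complement and coagulation genes were higher and 6 lower. That is 38.9% of the list called, against 39.6% of all genes. The lower count was 3 without NZW/LacJ animal 1 and 3 without MA/MyJ animal 2. Apcs, serum amyloid P, was higher by 1.33 ± 0.16, Saa4, a constitutive serum amyloid A, was lower at -1.22 ± 0.14, and Hamp2, a hepcidin gene, was higher by 1.11 ± 0.12.

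**Figure D3:**
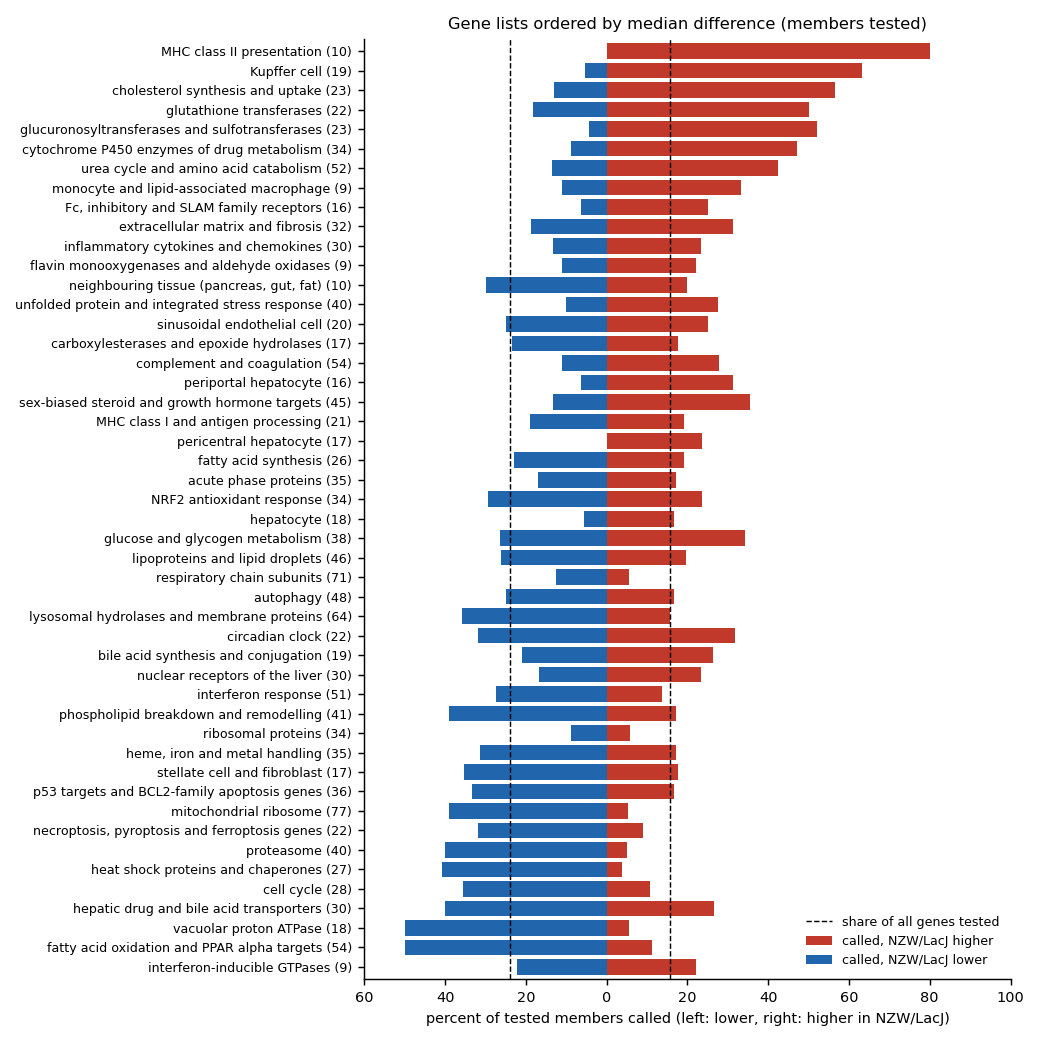
Percent of the tested members of 48 gene lists with at least 9 tested members that were called higher (red, right) or lower (blue, left) in NZW/LacJ, ordered by median difference; dashed lines mark 15.6% and 24%, the shares of all genes tested. MHC class II, Kupffer cell and cholesterol genes have the largest shares called higher, and vacuolar ATPase and fatty acid oxidation genes the largest shares called lower.

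The other probe sets of each gene gave a check on strain variants under the probes. Among the 143 genes with a difference of at least 1 that had another probe set past the filter, all other probe sets were called in the same direction for 93 (65.0%), had the same sign with 1 or more not called for 26, and included the opposite sign for 24. For 11 of these 24 a probe set was called in the opposite direction. Among all 2131 called genes with another probe set the corresponding numbers were 799 (37.5%), 750 and 582, with 153 called in the opposite direction.

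Slc2a9, a urate transporter, showed how far probe sets can part. The brightest lay at 9.22, 8.61, 8.85 and 8.63 in NZW/LacJ and between 11.04 and 11.47 in MA/MyJ (-2.42 ± 0.14), while the other differed by 1.16 in the opposite direction (adjusted p = 4.96e-05 when that probe set stood for the gene). Both signs were found again in treated animals, at -1.30 and 0.91. For Cep85 the brightest probe set differed by 1.99 and the other by -0.05. Variants under the probes, transcript isoforms and other genes read by the same probes cannot be told apart here. Susd4, a complement inhibitor, differed by 2.75 and 4.40 in its 2 probe sets, but it was named by a rule that required such agreement. Atl3, a shaper of the endoplasmic reticulum, differed with the same sign in 4 probe sets, by 2.23, 2.40, 0.93 and 0.15. The last of these did not pass (adjusted p = 0.199 in limma), so the Atl3 probe sets agreed in sign alone.

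**Figure D4:**
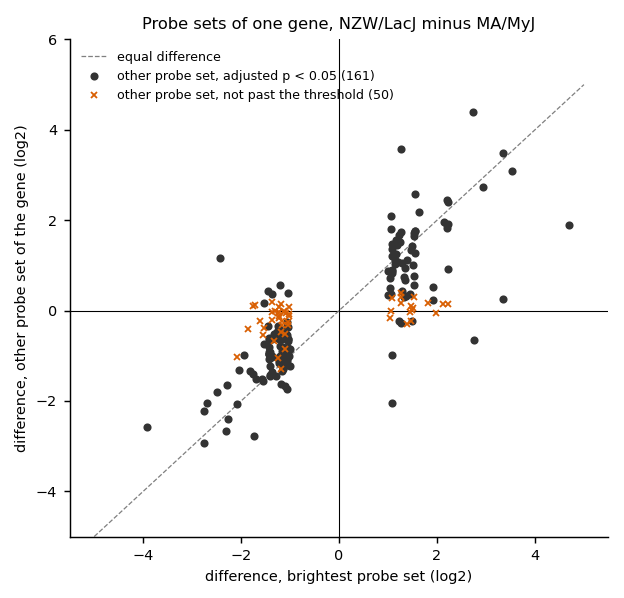
Difference of the brightest probe set (horizontal) against each of the 211 other probe sets of the 143 genes (vertical), in log2 units; 161 are past the threshold (dots) and 50 are not (crosses), and the dashed line marks equal differences. Most dots lie in the quadrants of equal sign, and crosses lie near the horizontal zero line.

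The treated animals of the same strains gave a second, separate set of 4 and 4 mice for the same contrast, under 600 mg/kg of PF-04287881. limma called 2690 genes there. Of the 4862 genes called in vehicle animals, 3916 had the same sign and 1588 also passed, while 105 passed with the opposite sign. Of the 397 with a difference of at least 1, 377 had the same sign, 284 passed with it and 20 had the opposite sign. Mgst2 differed by 5.08 ± 0.08, Cox6b2 by -5.15 ± 0.13 and Hsd3b5 by 4.46 ± 0.33, close to the vehicle values. Mgst2, Cox6b2 and Hsd3b5 were named by a rule that required a pass in treated animals. That they passed there was thus fixed by the choice and is no separate check.

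Among the genes named here, Alas1 and Aox1 turned with all animals separated. Alas1, the first enzyme of heme synthesis, lay at 10.55, 11.25, 10.93 and 10.80 in vehicle NZW/LacJ and at 11.30, 12, 12.42 and 12.63 in vehicle MA/MyJ. In treated animals it lay between 12.90 and 13.14 in NZW/LacJ and between 12.20 and 12.71 in MA/MyJ, so the difference went from -1.20 ± 0.26 to 0.48 ± 0.11. Aox1, an aldehyde oxidase, went from -0.68 ± 0.12 to 0.51 ± 0.14. The Aox1 difference in vehicle animals missed the threshold with all 31 arrays (adjusted p = 0.111).

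**Figure D5:**
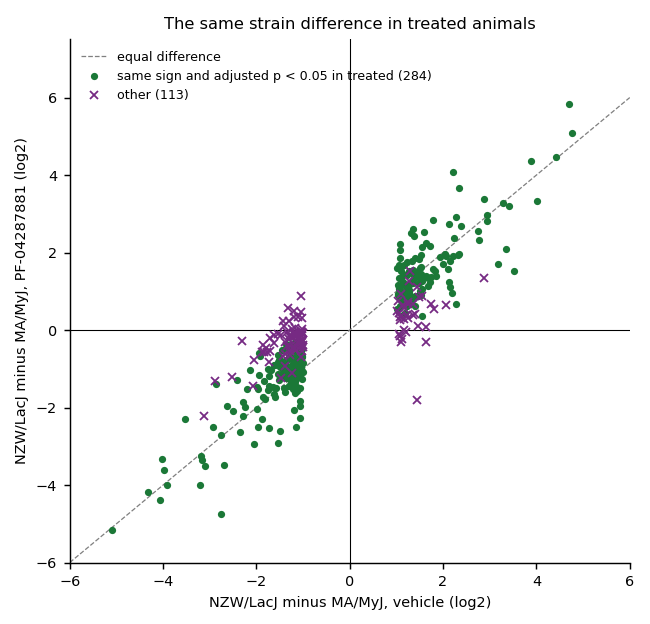
Difference between the strains in vehicle animals (horizontal) and in treated animals (vertical), in log2 units, for the 397 genes with a difference of at least 1; 284 passed with the same sign in treated animals (dots), 113 did not (crosses), and the dashed line marks equal differences. Mgst2 and Cox6b2 lie near the line, Cyp2b10 and Dbp differ more in treated than in vehicle animals, and the 20 of opposite sign lie at vehicle differences of at most 1.63 in size, that of Cyp7a1.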

How the data were processed

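Gene expression was measured on Affymetrix arrays, 1 per animal. The authors deposited log2 values per probe set, made with RMA in Affymetrix Power Tools per the submitters' processing notes, whose versions are not given there. No depth applies, and the number of arrays limits the precision. Probe sets were named from the platform annotation: of 44721, 34728 had 1 gene symbol, 872 had several, 9121 had none and 60 were controls. Each gene was represented by its brightest probe set over all arrays. Genes above 6.485, the median of all values, in at least 3 of the 8 arrays were tested, 12283 of 18147. Group means of the 8 arrays were fitted with limma 3.58.1 (lmFit and eBayes) in R 4.3.3 with version 1.17.8 of data.table, and p-values were adjusted by Benjamini-Hochberg over all genes tested, with a threshold of 0.05. The same fit was run on the 8 treated animals. Every adjusted p comes from limma.

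The members, the 42 pathway and 16 marker lists, and the tests were chosen with earlier results of these data known. Genes were named by rule, leaving out predicted and clone symbols: the 15 largest called differences in each direction that also passed in treated animals and in every other probe set past the filter; the 6 largest in each direction among genes with a mean of at least 11; the 6 largest whose other probe sets disagreed; and the 4 largest called members of each list, or 2 as values where none was called. Clec4f, Timd4, Nr1h3, Elane, Arntl, Hmgcs1, Tef and Per1 were chosen after their values were seen, as were the genes named from runs of neighbours or for a promoter motif. On simulated data of 12283 genes with independent noise, 65 of 100 changes of 0.5 and 94 of 100 changes of 1 were recovered. There 3.64% of the calls were false, and no call was made where no change was simulated. Far fewer genes were changed there than were called in the data, and no scaling effect was simulated. The false share therefore need not hold for the calls made here. Alternatives were other sets of arrays, filters, probe-set rules, scalings and variance models, a replicate block, and each array left out. Scan dates are not given in the sources used here, so a scan batch cannot be told apart from strain.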

Additional observations from a re-analysis of the deposited data

Results flagged for a closer look

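Among 227 named genes, each with 4 animals per strain, 20 of 454 groups held 1 animal far from the other 3, where chance would give about 23, or 1 in 20. In MA/MyJ animal 4, Gadd45b was high at 10.79 (others 9.25 to 9.46), Pdk4 at 10.9 (9.87 to 9.98), Cyp51 at 7.5 (7.27 to 7.28) and Ndufc1 at 12.61 (12.42 to 12.44), and Rrm2 was low at 7.26 (7.8 to 7.89). In MA/MyJ animal 3, Scarb1 was high at 11.63 (10.89 to 11), Csf1r at 10.51 (10.17 to 10.19), Vsig4 at 8.86 (8.56 to 8.6) and Cps1, of the urea cycle, at 13.98 (13.82 to 13.84), and Chka was low at 9.34 (10.3 to 10.49). In MA/MyJ animal 2, Tmem267 was low at 4.95 (5.4 to 5.45), Cd68 was low at 6.46 (6.68 to 6.72) and Clec7a, a fungal glucan receptor, was high at 9.06 (8.4 to 8.42).

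In NZW/LacJ animal 3, Arhgap26 was high at 8.35 (8.04 to 8.08), Psmb9, an immunoproteasome subunit, at 8.73 (8.5 to 8.52) and Fabp4, a fatty acid binding protein, at 8.0 (7.69 to 7.73). In NZW/LacJ animal 2, Gbp7, an interferon-inducible GTPase, was high at 6.31 (6.12 to 6.14), Clec4n, a fungal lectin receptor, at 7.34 (7.02 to 7.07) and Cps1 at 14.12 (others at 14.05). In NZW/LacJ animal 1, Saa4 was high at 11.85 (11.5 to 11.55).

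For 2 named genes, all 4 vehicle NZW/LacJ animals lay below all 4 vehicle MA/MyJ animals and the treated animals lay the opposite way. The difference was -1.2 in vehicle and 0.48 in treated animals for Alas1, and -0.68 and 0.51 for Aox1. The change between the vehicle and treated differences was not tested.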

How the results depend on the processing

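Counts of called genes depended on the arrays that set the spread: 1220 were higher and 1877 lower with all 31 arrays, against 1911 and 2951. Of the 227 named genes, 48 missed the threshold there with the same sign, and the 179 others kept their sign and their side of it. Leaving out 1 array at a time gave 1476 to 1928 higher and 2398 to 2990 lower, and 164 to 178 and 199 to 246 with a difference of at least 1. With the second brightest probe set, which exists for only 4960 genes, 745 were higher and 1037 lower, and 73 and 97 by at least 1. Signs then turned for Arhgap26 (-0.65), Slc2a9 (1.16), Cep85 (-0.05), Mgst3 (0.11), Pla2g6 (0.36), Ndufc1 (0.02), Mrps10 (0.62), Slc1a2 (-0.75), Ighm (-0.61) and Zbtb46 (0.08), and with the mean of the probe sets for Slc1a2 (-0.23) and Ighm (-0.06). The cause was not tested. Probe sets all agreed for 1549 genes by sign alone and for 400 in treated animals, and 2 runs of neighbours were left at differences of at least 1. The replicate block gave 1753 higher and 2691 lower. In their deviations same-numbered animals correlated at 0.00723 to 0.105. Whether same-numbered animals shared cages or other handling cannot be told from these values. Signal near background limits the size of differences for dim genes.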

Other observations

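The collagen genes Col1a2 and Col5a2, products of stellate cells and fibroblasts, were higher in NZW/LacJ by 0.91 ± 0.09 and 0.85 ± 0.15 (adjusted p = 0.000115 and 0.00176 in limma), and in treated animals the differences were 0.85 and 1.03. Col5a2 missed the threshold with all 31 arrays (adjusted p = 0.394). Over the list of extracellular matrix and fibrosis genes 10 of 32 were higher and 6 lower, and the lower count was 3 without NZW/LacJ animal 1 and 3 without NZW/LacJ animal 4. With all 31 arrays 3 were higher and 1 lower. In the main fit 50% of the list was called, against 39.6% of all genes. The markers of stellate cells and fibroblasts gave 3 higher and 6 lower of 17 (52.9% called). With all 31 arrays limma called 1 of them, as lower. Reln, a stellate cell marker, was lower at -0.60 ± 0.09. Sinusoidal endothelial markers were split at 5 higher and 5 lower of 20 (50% called), with 3 higher without NZW/LacJ animal 1, 2 or 4. Wnt2, a growth signal to hepatocytes, was higher by 1.14 ± 0.18. Ehd3, an endocytic protein, was lower at -1.22 ± 0.18 in its brightest probe set and at -0.12 (adjusted p = 0.542 in limma) in the next.

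Of 35 genes of heme, iron and metal handling, 6 were higher and 11 lower (48.6% called, against 39.6% of all genes). The lower count was 5 after centring and 7 without NZW/LacJ animal 2. Tfrc, the transferrin receptor that takes up iron and also marks red cell precursors, was higher by 0.97 ± 0.23, and Steap2, a metalloreductase, was lower at -0.79 ± 0.07. Among inflammatory cytokines and chemokines 7 of 30 were higher and 4 lower, so that 36.7% of the list was called against 39.6% of all genes. Ccl27a, a chemokine, was higher by 1.59 ± 0.14, and by 2.52 in treated animals. Nfkbia, the inhibitor of NF-kappaB, was lower at -0.73 ± 0.09.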
